A study of Mus musculus with 16 samples.

Results

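The arrays described here are the 7 taken at day 5 from whole dorsal skin, 5 from mice given a Janus kinase inhibitor (2 ruxolitinib, 3 tofacitinib) and 2 from mice given the vehicle, dimethyl sulfoxide (DMSO). They were selected by their titles from the 16 arrays of the series, and the other 9 arrays, all from day 0, served as the reference against which each changed gene was placed. All animals were female C57/B6 mice, an inbred black-coated strain, written C57/B7 in the sample titles, and were 8.5 weeks old at day 0. A first biopsy was taken at day 0 (mice 1 to 9), the agent was applied to the skin daily for 4 days, and a second biopsy was taken from 7 of the same mice at day 5. Vehicle was given to mice 2 and 3, ruxolitinib to mice 4 and 6, and tofacitinib to mice 7, 8 and 9. Every day-5 sample, vehicle included, therefore came from an animal that had already been biopsied, and the labels used here state no dose. For mouse 7 one label field names ruxolitinib and the others tofacitinib, by which it was grouped.

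Janus kinases (JAK1, JAK2, JAK3 and TYK2) sit on the inner ends of cytokine receptors and phosphorylate STAT transcription factors, which then switch on target genes, among them the SOCS genes that feed back on the pathway. Ruxolitinib and tofacitinib occupy the ATP site of these kinases. Both hold a pyrrolopyrimidine, which carries a substituted pyrazole in ruxolitinib and a substituted aminopiperidine in tofacitinib. In mouse back skin at this age most follicles rest (telogen), and the question behind the treatment was whether blocking these kinases starts a new growth phase (anagen). In anagen, Sonic hedgehog and Wnt signals drive the follicle matrix, and follicle melanocytes begin to make pigment, which they do not do at rest.

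Of 12087 genes tested, 90 differed between the 5 inhibitor arrays and the 2 vehicle arrays (0.745%; limma, adjusted p < 0.05). Of these 90, 80 were higher with the inhibitors (0.662% of genes tested) and 10 were lower (0.0827%). Many calls were near the threshold, 29 of the 90 having a limma adjusted p between 0.04 and 0.05. The rises had a median of 1.63 and a range of 0.67 to 3.23 on the log2 scale, and the falls a median of -1.05 and a range of -0.71 to -3.41. The 6 largest rises were those of Tyrp1, Shh, Pmel, Klk13, Tgm3 and Dct, and the largest fall was that of the matrix protease Mmp10. In 89 of the 90 genes the inhibitor arrays did not overlap the vehicle arrays. This adds no support, since the genes were called from these same arrays. Over all genes, 8.72% had every inhibitor array higher and 7.23% every one lower. The calls rest on few arrays: 0 genes passed without the vehicle array of mouse 2 (869 had an unadjusted p under 0.05), and 20 passed without that of mouse 3. With the mouse as a fixed block, which sets the day-0 to day-5 change within treated mice against that within vehicle mice, 0 genes passed adjustment and 857 had an unadjusted p under 0.05. Of the 90 genes, 89 were among them and all 90 kept their direction. That adds no support either, since the 90 were called from the same day-5 arrays. Leaving out another array gave between 42 and 374 genes, the highest without mouse 9.

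The values are log2 GCRMA values per probe set, on which 27 control probe sets that match no mouse transcript gave a median of 1.70 and a maximum of 2.43. Pairwise correlations of the day-5 arrays lay between 0.963 and 0.987. Defining markers of skin were present in every array: the mean of 13 basal keratinocyte genes was 11.52 to 11.95 at day 0, 10.64 and 10.67 with vehicle and 10.64 to 10.96 with the inhibitors. The mean of 31 skeletal muscle genes was 11.73 to 12.84 at day 0, 13.10 and 13.21 with vehicle and 12.88 to 13.23 with the inhibitors, so muscle RNA was part of every biopsy. None of these 31 genes differed between inhibitors and vehicle at an unadjusted p under 0.05, although all 31 differences lay below 0 (median -0.19). With the muscle mean as a covariate, 150 genes passed, 89 of the 90 among them.

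The starts of 4 genes are shown here, because 3 of them are pigment enzymes that rose together and the fourth is the gene with the largest fall. Each window runs from 250 bases before to 50 bases after the RefSeq transcription start (build GRCm38.p6), 5′ to 3′ on the gene's own strand. Capitals in the first pair mark AGTCATGTGCT, the longest run of letters that both windows share (11 bases), which is the M-box known to bind the melanocyte factor MITF. In Dct, capitals mark CATGTG, the core of that box, searched on both strands. In Mmp10, capitals mark TGANTCA, the AP-1 motif.
Tyr, chr7:87493463-87493762, minus strand: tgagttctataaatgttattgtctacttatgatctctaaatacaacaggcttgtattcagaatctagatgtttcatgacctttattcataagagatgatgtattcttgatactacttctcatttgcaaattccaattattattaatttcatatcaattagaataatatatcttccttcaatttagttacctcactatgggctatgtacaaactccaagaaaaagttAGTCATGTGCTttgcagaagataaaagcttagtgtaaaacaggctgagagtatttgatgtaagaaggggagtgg
Tyrp1, chr4:80833963-80834262, plus strand: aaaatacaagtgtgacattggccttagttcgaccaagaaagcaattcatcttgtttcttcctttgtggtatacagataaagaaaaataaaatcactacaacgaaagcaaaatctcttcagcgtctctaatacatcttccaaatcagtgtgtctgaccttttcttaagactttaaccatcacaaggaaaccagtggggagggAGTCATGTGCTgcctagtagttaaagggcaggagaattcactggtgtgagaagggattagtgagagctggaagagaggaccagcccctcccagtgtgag
Dct, chr14:118052197-118052496, minus strand: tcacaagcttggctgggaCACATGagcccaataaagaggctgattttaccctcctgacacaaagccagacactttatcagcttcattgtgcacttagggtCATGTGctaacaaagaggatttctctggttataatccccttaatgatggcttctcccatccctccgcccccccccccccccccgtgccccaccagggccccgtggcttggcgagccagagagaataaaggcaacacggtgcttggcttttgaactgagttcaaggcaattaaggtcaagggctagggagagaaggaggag
Mmp10, chr9:7502092-7502391, plus strand: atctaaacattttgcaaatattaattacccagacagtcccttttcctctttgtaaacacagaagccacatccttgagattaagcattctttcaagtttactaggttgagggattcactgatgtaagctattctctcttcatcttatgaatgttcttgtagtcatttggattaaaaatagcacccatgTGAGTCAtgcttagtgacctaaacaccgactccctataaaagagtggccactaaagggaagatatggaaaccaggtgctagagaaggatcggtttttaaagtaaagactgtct
The full 11 letters, searched on both strands, occur in 7 of 32851 mouse windows of this length (0.0213%). Tyr and Tyrp1 are among the 7 by definition, since the letters were taken from their windows. The others are C1qb and predicted genes with Gm symbols. The first of the 11 letters lies 24 bases before the start of Tyr and 49 before that of Tyrp1 (positions -24 and -49). The 6-letter core, which the 11 letters contain, is common, in 14.2% of windows, and lies at -232 and -150 in Dct. The AP-1 letters occur in 7.81% of windows and lie at -63 in Mmp10, whose window also holds the 6-letter core once, overlapping them. A match describes the sequence only.

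Genes for the making of melanin rose above anything seen at day 0. Of 10 melanocyte genes tested of 16 listed, 4 rose (Pmel, Tyrp1, Tyr and Dct), none fell, and 7 had an unadjusted p under 0.05 in the upward direction, against 8.92% of all genes (4.01% downward). The list's median difference was 1.98, beside 0.01 for all genes tested. Tyr and Kit passed the filter on low values through the inhibitor arrays alone and could only rise; of the other 8 genes, 5 had such a p. The vehicle mean of all 4 lay inside the day-0 range, and each of the 5 treated mice exceeded both vehicle mice. With the mouse as a fixed block, or with the day-5 arrays alone, the count of 4 became 0. In bulk tissue, more cells of a type and more RNA per cell cannot be told apart.

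Pmel encodes the fibril protein on which melanin is laid down. It read 3.70 and 4.09 with vehicle, 7.40 and 6.79 with ruxolitinib, and 7.89, 6.75 and 6.40 with tofacitinib, while the 9 day-0 arrays ran from 3.80 to 4.98. The groups were far apart, and the vehicle arrays lay just under the day-0 range and inside it. The difference was 3.10 ± 0.34 (SE), an 8.60-fold rise (limma adjusted p = 0.00243). Followed within the same mouse, Pmel moved by -0.43 and 0.29 under vehicle and by 2.26 to 3.28 under the inhibitors.

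Tyrp1, a melanosomal enzyme of eumelanin synthesis, read 4.09 and 5.11 with vehicle, 8.30 and 7.97 with ruxolitinib, and 8.36, 7.74 and 7.24 with tofacitinib. It ranged from 3.11 to 4.95 at day 0, so all inhibitor arrays stood above both other groups. The rise was 3.23 ± 0.42 (limma adjusted p = 0.00399), the largest of the comparison, and 1.72 by its lowest probe set. Tyr, tyrosinase, which catalyses the first step from tyrosine, was at the level of the control probe sets in both vehicle arrays (1.71 and 2.29) and in all day-0 arrays (1.43 to 2.08). It read 4.55 and 4.26 with ruxolitinib and 4.76, 3.88 and 3.60 with tofacitinib. Since the vehicle arrays give only an upper bound, the rise is stated as at least 3.42-fold, against the highest control value (limma adjusted p = 0.00278). Dct, dopachrome tautomerase, read 5.93 and 7.83 with vehicle, 9.94 and 9.50 with ruxolitinib, and 10.24, 9.26 and 9.73 with tofacitinib. The groups did not overlap, but the vehicle arrays lay nearly as far apart as the day-0 arrays (5.36 to 7.76). The rise was 2.76 ± 0.54 (limma adjusted p = 0.0361). Dct did not pass in 6 of 19 alternative settings, among them the one without mouse 7 (2.51, limma adjusted p = 0.0696). Without the vehicle array of mouse 2 the difference was 1.94.

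Mlana, another melanosome protein, read 3.32 and 4.39 with vehicle and 4.78 to 7.81 with the inhibitors, and did not pass (2.41 ± 0.54, limma adjusted p = 0.0564). The ion channel gene Trpm1 (1.79 ± 0.58, adjusted p = 0.177) and the growth factor receptor gene Kit (0.91 ± 0.35, adjusted p = 0.273) did not pass either. The lineage factors stood apart from the enzymes. Mitf read 10.34 and 10.54 with vehicle and 10.26 to 10.70 with the inhibitors, overlapping throughout, with a difference of 0.08 (95% interval -0.34 to 0.50) whose sign depends on the probe set. Sox10, which also marks Schwann cells, read 5.42 and 5.93 with vehicle and 4.81 to 6.20 with the inhibitors (interval of the difference -1.85 to 1.11). The mean of the 10 melanocyte genes was 4.95 and 5.61 with vehicle, 6.26 to 7.55 with the inhibitors and 4.21 to 5.59 at day 0.

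**Figure D1:**
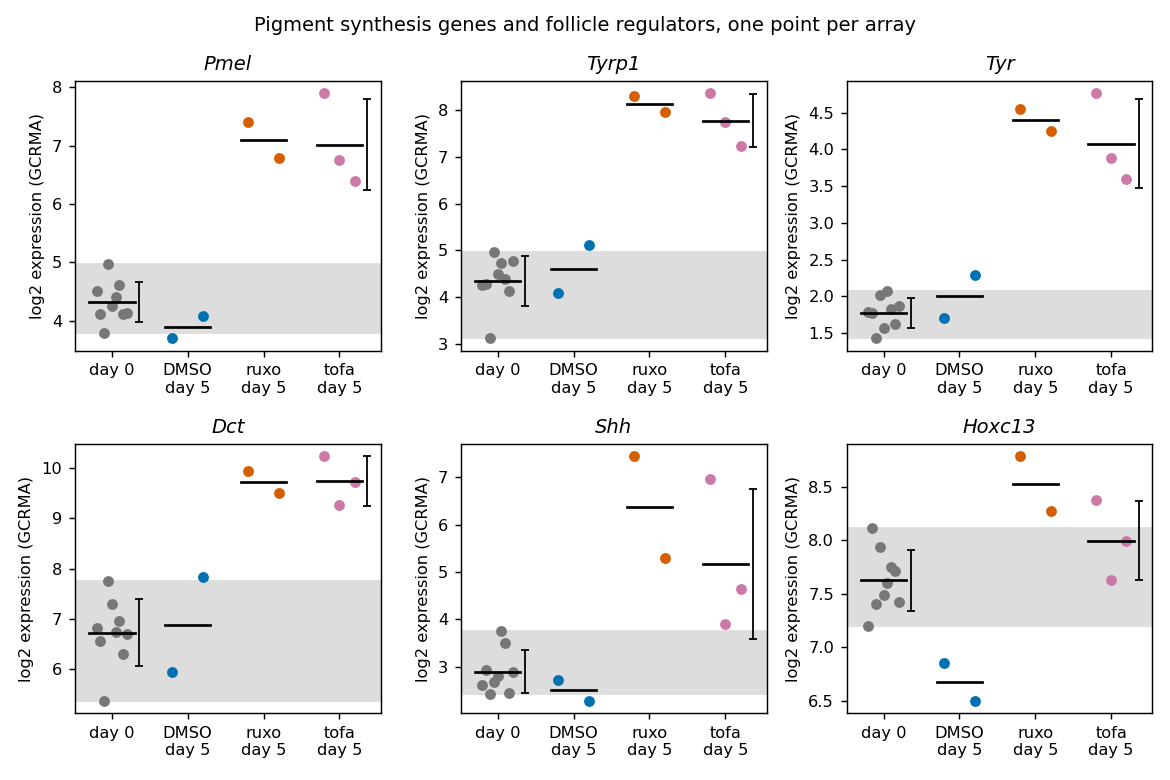
Log2 expression (vertical axis, GCRMA) of 4 pigment genes, Shh and Hoxc13 in each array by group (horizontal axis: day 0, n = 9; DMSO, n = 2; ruxolitinib, n = 2; tofacitinib, n = 3). Black lines are means, bars the SD in groups of 3 or more, and the grey band is the day-0 range; all 5 inhibitor arrays stand above both vehicle arrays in every panel.

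Shh, the hedgehog ligand of the growing follicle, rose, whereas its receptor and transcription factor genes did not pass the test. Shh read 2.73 and 2.27 with vehicle, 7.45 and 5.30 with ruxolitinib, and 6.95, 3.90 and 4.65 with tofacitinib. At day 0 it ranged from 2.43 to 3.76. Every treated array exceeded every vehicle and day-0 array, but mice 4 and 7 were far higher than mice 6, 8 and 9. The rise was 3.12 ± 0.66 (limma adjusted p = 0.0479). This call was near the threshold and did not pass without the filter on low values (limma adjusted p = 0.0614). Its size is uncertain, because the vehicle array of mouse 3 lay within the range of the control probe sets. Shh and Tyr were among 8 of the 90 genes that passed the filter on low values through the inhibitor arrays alone, so for these a rise was the only change the filter allowed.

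Of the 12 hedgehog pathway genes tested of 17 listed, Shh alone rose, and 4 had an unadjusted p under 0.05 in the upward direction (3 of 11 without Shh). The share of all genes with such a p was 8.92%. The list's median difference was 0.41. Ptch1, the receptor and a target of the pathway, read 10.59 and 10.70 with vehicle, 11.22 and 11.27 with ruxolitinib and 10.98, 11.07 and 10.87 with tofacitinib (0.44 ± 0.14, limma adjusted p = 0.165). The groups did not overlap, and the inhibitor mean lay within the day-0 range of 10.91 to 11.37. Gli2, a hedgehog transcription factor, read 6.28 and 6.56 with vehicle and 6.93 to 7.90 with the inhibitors (1.10 ± 0.33, adjusted p = 0.139). Gli1, the most direct target, read 3.69 and 4.15 with vehicle and 4.09 to 5.25 with the inhibitors, which overlap (0.64 ± 0.37, adjusted p = 0.496).

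Wnt and BMP genes did not pass. Among 39 Wnt ligands, receptors and targets, 0 passed in limma, and the median difference was 0.23. At an unadjusted p under 0.05, 6 were higher (8.92% of all genes) and 1 was lower (4.01%). Lef1, which carries the Wnt signal to DNA, read 6.80 and 7.23 with vehicle and 7.58 to 8.13 with the inhibitors (0.86 ± 0.53, adjusted p = 0.529), inside the day-0 range of 6.23 to 8.47. Axin2, a Wnt target, read 8.60 and 8.73 with vehicle and 8.10 to 8.95 with the inhibitors, all below the day-0 range of 9.51 to 10.27. Of 19 BMP and quiescence genes 0 passed, with 1 at an unadjusted p under 0.05 in each direction. Bmp4 read 5.59 and 5.64 with vehicle and 4.57 to 5.69 with the inhibitors, against 7.28 to 8.14 at day 0.

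Among regulators and keratins of the hair shaft and inner root sheath, 10 of 33 listed genes passed the filter on low values. Of these 10, 1 rose (Hoxc13) and 6 had an unadjusted p under 0.05 upward (8.92% of all genes). Krt25, among the 6, passed that filter through the inhibitor arrays alone and could only rise; without it the count is 5 of 9. Hoxc13 encodes the homeobox factor that switches on hair keratin genes. It read 6.85 and 6.50 with vehicle, 8.79 and 8.27 with ruxolitinib, and 8.37, 7.63 and 7.99 with tofacitinib. Vehicle skin lay under the day-0 range of 7.20 to 8.11 and the inhibitor mean lay over it. The rise was 1.54 ± 0.24 (limma adjusted p = 0.00903). Krt25, a keratin of the inner root sheath, read 2.72 and 2.51 with vehicle and 2.79 to 5.37 with the inhibitors (1.75 ± 0.41, adjusted p = 0.064). Dlx3, a follicle and epidermal homeobox gene, read 5.60 and 5.20 with vehicle and 6.16 to 7.49 with the inhibitors (1.41 ± 0.36, adjusted p = 0.088). Msx2, also a homeobox gene of the matrix, read 3.36 and 3.03 with vehicle and 3.69 to 4.97 with the inhibitors (1.11 ± 0.34, adjusted p = 0.154). In each of these 3 genes the groups did not overlap.

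Other genes that left the day-0 range under treatment were a mixed set. Klk13, a secreted serine protease, read 2.76 and 3.17 with vehicle, 6.57 and 5.85 with ruxolitinib, and 5.61, 7.31 and 4.49 with tofacitinib (2.99 ± 0.61, limma adjusted p = 0.0405). Mtmr7, a lipid phosphatase, read 3.73 and 3.48 with vehicle and 5.57 to 7.35 with the inhibitors (2.75 ± 0.52, adjusted p = 0.0306). By the mean of its probe sets the rise of Mtmr7 was smaller, 1.96. Cpm, a membrane carboxypeptidase, read 5.56 and 5.96 with vehicle and 7.71 to 9.52 with the inhibitors (2.51 ± 0.50, adjusted p = 0.0386). In these 3 genes vehicle skin stayed inside the day-0 range and every treated array but 1 exceeded it, the exception being Klk13 in mouse 9 (4.49, with a day-0 maximum of 4.70). Lrrc15, a membrane protein with leucine-rich repeats, rose by 2.17 ± 0.34 from 2.96 and 3.64 to between 4.63 and 6.13. Atp6v1b1, a subunit of the proton pump that acidifies vesicles, rose by 1.83 ± 0.29 from 3.23 and 3.32 to between 4.35 and 5.69. Olah, a thioesterase of fatty acid synthesis, rose by 1.48 ± 0.19 from 2.26 and 2.49 to between 3.42 and 4.39 (limma adjusted p = 0.00333). The size of this rise is uncertain, because the lower vehicle value lay among the control probe sets. Olah also passed the filter on low values through the inhibitor arrays alone, so it could only rise. Rptn, repetin, a precursor protein of the cornified envelope, rose by 2.09 ± 0.46 from 3.44 and 3.47 to between 4.57 and 6.65 (limma adjusted p = 0.0498). Unlike the other epidermal genes below, it was not low in vehicle skin against day 0 (2.92 to 4.35).

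Many genes of the outer epidermis were lower in vehicle skin than at day 0 and stood at or near their day-0 level in treated skin. Of 29 epidermal differentiation genes tested of 31 listed, 7 rose (Tgm3, Casp14, Asprv1, Krt1, Lce1b, Lce1m and Rptn) and none fell. For comparison with the next counts, 8.92% of all genes had an unadjusted p under 0.05 upward and 4.01% downward. Without adjustment, 20 had a p under 0.05 upward and 0 downward (13 without the vehicle array of mouse 3), and the median difference was 0.83. The mean of the 29 genes was 9.54 and 9.30 with vehicle, 10.10 to 10.51 with the inhibitors and 9.56 to 10.65 at day 0. Against day 0, 19 of the 29 were lower in vehicle skin by the test (28.9% of all genes) and 2 were higher (22.2%). By class, 13 of the 29 were restored into the day-0 range (17.0% of all genes), 10 were partly restored (33.8% of all genes), 2 departed from it and 4 stayed inside. The mean of 13 basal keratinocyte genes, by contrast, overlapped between vehicle and inhibitors, and 0 of the 13 passed. The count of 7 fell to 1 when arrays were centred on their medians, to 4 after a second quantile normalization, to 3 without the filter or without the mouse as a block, and to between 0 and 2 without any one array other than mouse 9. With the mouse fixed as a block, or with the day-5 arrays alone, it was 0.

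Tgm3, the transglutaminase that cross-links the cornified envelope and the hair shaft, read 4.11 and 3.61 with vehicle. It read 7.03 and 6.95 with ruxolitinib, 6.33, 6.89 and 5.93 with tofacitinib, and 5.55 to 7.54 at day 0. All 5 treated arrays lay inside the day-0 range and both vehicle arrays below it. The rise was 2.80 ± 0.44, 6.98-fold (limma adjusted p = 0.00903), and 1.44 by its other probe set. Casp14, the protease that helps to break down filaggrin, read 8.17 and 7.76 with vehicle, 9.74 and 9.75 with ruxolitinib, and 9.70, 10.37 and 9.33 with tofacitinib (1.82 ± 0.40, limma adjusted p = 0.0498). It too was wholly inside its day-0 range of 8.81 to 10.67. Asprv1, a protease that processes filaggrin, read 10.80 and 10.45 with vehicle and 11.46 to 12.05 with the inhibitors, against 11.23 to 12.22 at day 0 (1.10 ± 0.22, limma adjusted p = 0.0398).

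Krt1, the keratin of the suprabasal layers, moved less. It read 11.86 and 11.47 with vehicle, 12.34 and 12.41 with ruxolitinib, and 12.35, 12.39 and 12.17 with tofacitinib, all below the day-0 minimum of 12.42. The rise of 0.67 ± 0.14 was the smallest of the 80 (limma adjusted p = 0.0477), and it undid 69.9% of the fall seen with vehicle. The late cornified envelope genes, which lie in one cluster and encode similar small proteins, behaved alike. Lce1h (1.85 ± 0.40) and Lce1i (1.16 ± 0.23) were restored, and Lce1m (0.83 ± 0.18) was partly restored, as was Lce1b, from 11.04 and 11.52 with vehicle to between 12.06 and 12.53. Probe sets for such related sequences can share signal, so these 4 genes may not be independent. Kprp, a proline-rich keratinocyte protein, read 10.07 and 9.32 with vehicle, 10.61 to 11.35 with the inhibitors and 11.02 to 11.81 at day 0 (1.23 ± 0.24).

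Further large rises from a vehicle level below the day-0 range were those of Lipk, Car6, Ces2f, Slc46a2 and Wfdc21, which were restored, and of Pla2g4f, which was partly restored. Lipk, a lipase of the granular layer, read 5.78 and 6.31 with vehicle, 8.64 and 8.70 with ruxolitinib, and 8.51, 8.71 and 7.82 with tofacitinib (2.40 ± 0.36, limma adjusted p = 0.00903). Its day-0 range was 7.02 to 8.61. Car6, a secreted carbonic anhydrase, read 2.13 and 3.27 with vehicle and 4.85 to 6.16 with the inhibitors, against 4.53 to 5.49 at day 0 (2.52 ± 0.36, limma adjusted p = 0.00639). The vehicle value of mouse 2 lay among the control probe sets, so the size of this rise is uncertain. Ces2f, a carboxylesterase, read 2.70 and 2.64 with vehicle and 3.89 to 6.31 with the inhibitors (2.60 ± 0.47). Slc46a2, a membrane transporter, rose by 2.36 ± 0.46 and undid 96.1% of the change seen with vehicle. Pla2g4f, a phospholipase that frees fatty acids from membranes, rose by 2.48 ± 0.43 and undid 77.2% of it, the highest share among the partly restored genes. Wfdc21, a small secreted protein, read 8.97 and 10.16 with vehicle, 10.92 to 11.53 with the inhibitors and 10.57 to 11.32 at day 0 (1.64 ± 0.28).

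Genes of DNA replication and mitosis were also low in vehicle skin and nearer to day 0 in treated skin, though unevenly between mice. Of 45 cell cycle genes tested of 47 listed, 3 rose (Mki67, Bub1b and Pbk) and none fell. Upward, 32 of the 45 had an unadjusted p under 0.05, against 8.92% of all genes. Such a p was found for 15 genes without the vehicle array of mouse 2, for 20 without that of mouse 3, for 21 with the day-5 arrays alone and for 12 with the mouse as a fixed block. All 45 differences were above 0, with a median of 1.11. The mean of the 45 genes was 6.63 and 6.67 with vehicle, 8.44 and 7.55 with ruxolitinib, and 8.32, 7.59 and 6.77 with tofacitinib, against 8.09 to 8.74 at day 0. Mice 4 and 7 reached the day-0 range, mice 6 and 8 lay between, and mouse 9 was close to vehicle. Without mouse 9 the count of 3 rose to 22, and without either vehicle array or mouse 4 it was 0. Against day 0, 37 of the 45 were lower in vehicle skin by the test, as were 28.9% of all genes. Of the 45 genes, 8 were restored (17.0% of all genes), 31 partly restored (33.8%), 2 departed, 1 moved further away and 3 stayed inside the day-0 range.

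Mki67, the nuclear protein of dividing cells, read 8.82 and 9.39 with vehicle, 11.14 and 10.42 with ruxolitinib, and 10.82, 10.34 and 9.99 with tofacitinib (1.42 ± 0.29, limma adjusted p = 0.0417). The day-0 range was 10.52 to 11.75. Within each mouse it changed by -1.70 and -1.68 under vehicle and by between -1.20 and 0.01 under the inhibitors. Bub1b, a kinase of the spindle checkpoint, read 4.16 and 3.97 with vehicle and 5.14 to 6.86 with the inhibitors, against 6.83 to 7.77 at day 0 (1.89 ± 0.37, limma adjusted p = 0.0361). Pbk, a mitotic kinase, read 5.10 and 5.04 with vehicle, 8.31 and 7.34 with ruxolitinib, and 7.90, 6.85 and 5.38 with tofacitinib (2.08 ± 0.45, limma adjusted p = 0.0483). Outside the list, the kinetochore gene Cenph rose by 1.65 ± 0.27 and was restored, and the spindle motor gene Kifc1 rose by 1.63 ± 0.35 and was partly restored. Kif11, also a spindle motor gene, differed by 1.73 ± 0.39 and did not pass (limma adjusted p = 0.0544).

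**Figure D2:**
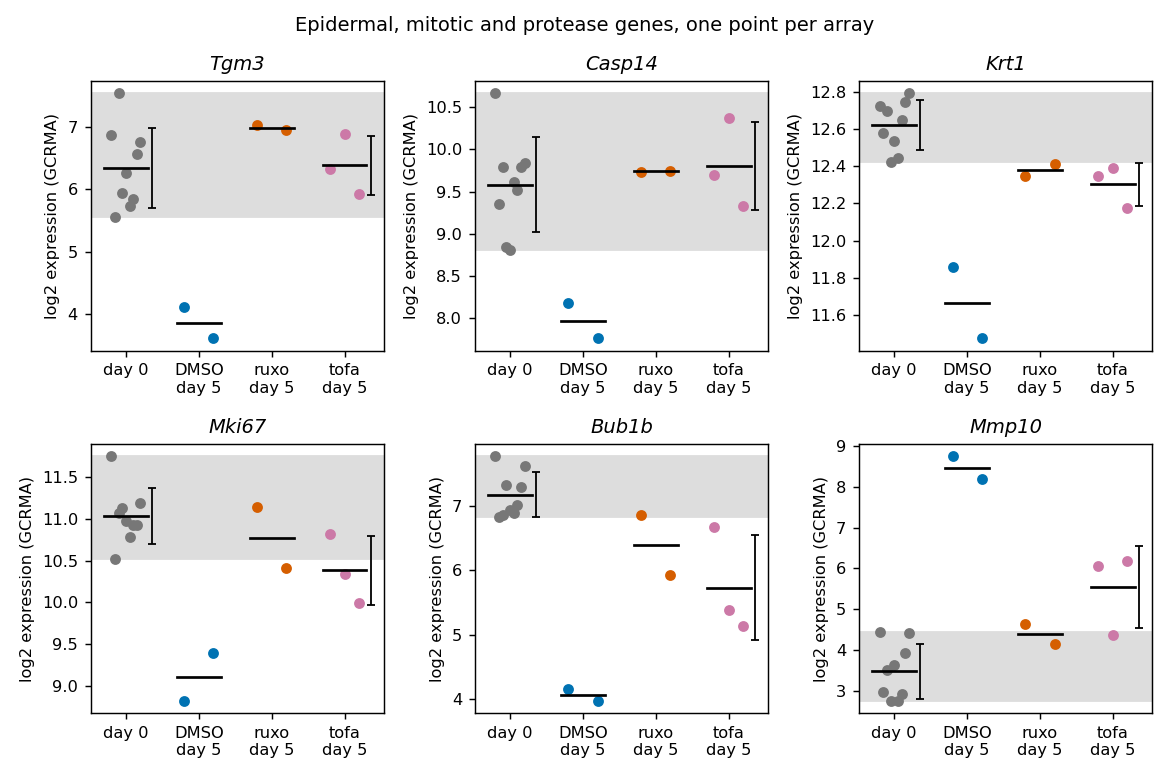
Log2 expression (vertical axis, GCRMA) of Tgm3, Casp14, Krt1, Mki67, Bub1b and Mmp10 in each array by group (horizontal axis), with means as black lines, the SD as bars in groups of 3 or more, and the day-0 range as a grey band. In the first 5 panels vehicle lies under the band; in the Mmp10 panel it lies above, at 8.76 and 8.19, with the inhibitor arrays between 4.15 and 6.18.

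**Figure D3:**
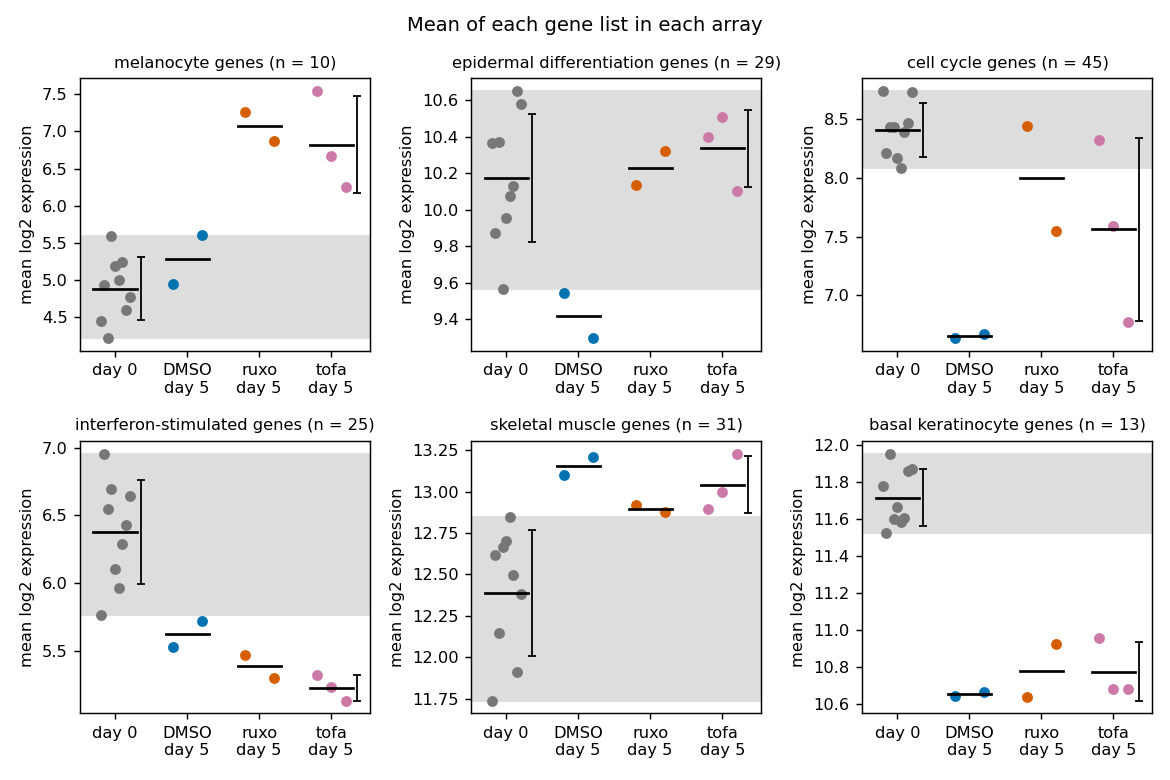
Mean log2 expression (vertical axis) of 6 gene lists in each array by group (horizontal axis); lines, bars and bands as above, and n is the number of genes tested in a list. The melanocyte mean with the inhibitors (6.26 to 7.55) exceeds vehicle and day 0, the cell cycle mean spreads from 6.77 to 8.44 between treated mice, and the muscle mean overlaps between vehicle and inhibitors.

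The 10 falls were led by Mmp10, stromelysin-2, a protease made by keratinocytes at wound edges. It read 8.76 and 8.19 with vehicle, 4.63 and 4.15 with ruxolitinib, and 6.06, 4.38 and 6.18 with tofacitinib, while the day-0 arrays ran from 2.74 to 4.44. Vehicle skin stood far above every other array, and 3 of the 5 treated arrays stood between vehicle and day 0. The fall was -3.41 ± 0.54 on the log2 scale, 10.6-fold (limma adjusted p = 0.00903), and undid 67.9% of the rise seen with vehicle. Within each mouse Mmp10 changed by 5.80 and 4.68 under vehicle and by 0.47 to 3.15 under the inhibitors. Among 11 matrix metalloproteinases and inhibitors tested, 1 fell (Mmp10) and none rose, against 0.0827% and 0.662% of all genes. At an unadjusted p under 0.05, 1 was higher (8.92% of all genes) and 2 were lower (4.01%). Of the 11 differences, 7 were above 0 (median 0.03). Of 19 stress keratin and activated keratinocyte genes tested, 1 fell and none rose. Such a p was found for 4 of the 19 upward and 2 downward, and 9 of the 19 differences were above 0. Mmp3, stromelysin-1, read 10.34 and 9.41 with vehicle and 7.41 to 9.07 with the inhibitors, and did not pass (-1.57 ± 0.42, limma adjusted p = 0.101).

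Cntnap2, an adhesion protein of axons, read 7.42 and 7.09 with vehicle, 5.12 and 4.86 with ruxolitinib, and 4.82, 6.21 and 5.36 with tofacitinib (-1.97 ± 0.31, limma adjusted p = 0.00903). It was 2.22 to 3.21 at day 0, so treated skin was still well above the starting level and 42.6% of the rise was undone. The mean of 9 Schwann cell genes was 8.21 and 8.14 with vehicle and 7.35 to 8.19 with the inhibitors, and its part in the Cntnap2 fall was not tested. Ddn, dendrin, read 6.16 and 4.88 with vehicle, 3.47 to 4.16 with the inhibitors and 2.17 to 3.58 at day 0 (-1.83 ± 0.38, limma adjusted p = 0.046). Wfikkn2, a secreted protein that binds myostatin, read 5.79 and 5.70 with vehicle and 3.81 to 5.03 with the inhibitors, and its mean returned to the day-0 range of 3.54 to 4.67 (-1.44 ± 0.29). The falls of Plekhb2 (-0.80 ± 0.16) and of Sec61a2 (-0.71 ± 0.15), a subunit of the channel through which proteins enter the endoplasmic reticulum, were small and also ended inside the day-0 range. Rprd1a, a regulator of RNA polymerase II, fell by 0.76 on the log2 scale away from its day-0 range, but the plain mean differences of its 3 probe sets ran from -0.74 to 0.34. The other 3 genes that fell have clone names only.

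The kinases and their classic feedback genes did not pass. Of 4 Janus kinases 3 passed the filter on low values, and Jak1 differed by -0.23 (95% interval -0.66 to 0.20), Jak2 by -0.01 (interval -0.27 to 0.25) and Tyk2 by 0.31 (interval -0.18 to 0.80). Among 18 feedback and target genes of the pathway, 0 passed in limma, and the median difference was -0.05. At an unadjusted p under 0.05, 1 was higher (8.92% of all genes) and 2 were lower (4.01%). The 2 downward ones were Socs3 and Bcl3.

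Socs3 encodes the suppressor induced by STAT3 signalling. It read 9.81 and 9.11 with vehicle, 7.92 and 8.11 with ruxolitinib, and 8.36, 7.56 and 8.35 with tofacitinib. The groups did not overlap, and all 5 treated arrays were below the day-0 range of 9.13 to 10.53, but the difference missed the threshold (-1.40 ± 0.32, limma adjusted p = 0.0596). Bcl3, a partner of NF-kB proteins and a STAT3 target, read 5.46 and 4.69 with vehicle and 2.97 to 4.32 with the inhibitors (-1.55 ± 0.42, adjusted p = 0.104). Cish, a feedback gene of STAT5, read 6.75 and 6.96 with vehicle, 6.36 and 6.81 with ruxolitinib, and 7.71, 7.99 and 6.05 with tofacitinib, which overlap (interval of the difference -0.96 to 1.14). Socs2 read 8.53 and 7.76 with vehicle and 6.93 to 8.42 with the inhibitors (interval -1.55 to 0.50). Of the STAT genes, Stat3 differed by -0.33 ± 0.16 and Stat5b by -0.46 ± 0.20, and 0 of 5 passed (1 had an unadjusted p under 0.05).

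Interferon-stimulated genes report signalling through JAK1 and its partners, and 13 of 25 tested were already lower in vehicle skin than at day 0 by the test, as were 28.9% of all genes. Between inhibitors and vehicle, 0 of 25 passed in limma and 3 had an unadjusted p under 0.05, all downward (4.01% of all genes). The median difference was -0.21, and 5 of 25 differences were above 0. Usp18, which restrains the interferon receptor, read 3.71 and 3.60 with vehicle, 2.52 and 2.68 with ruxolitinib, and 3.15, 2.25 and 2.46 with tofacitinib (-1.04 ± 0.39, adjusted p = 0.261). Vehicle lay far below the day-0 range of 5.66 to 7.39, and the lowest treated array (2.25) read within the range of the control probe sets. Ifitm6, a membrane protein of the interferon-induced family, read 5.20 and 4.16 with vehicle and 2.21 to 3.14 with the inhibitors (-2.06 ± 0.85, adjusted p = 0.31). Rtp4, a chaperone of membrane receptors, read 4.36 and 4.62 with vehicle and 2.82 to 3.52 with the inhibitors (-1.20 ± 0.50, adjusted p = 0.312). Of 10 T and NK cell markers 0 passed in limma and 0 had an unadjusted p under 0.05; their mean was 3.98 and 4.08 with vehicle, 3.82 to 4.59 with the inhibitors and 5.39 to 6.61 at day 0.

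The lists of cytokine receptors that signal through these kinases held no gene past adjustment. Of 7 genes of the gp130 and oncostatin M system, 0 passed in limma and 1 difference was above 0 (median -0.25). At an unadjusted p under 0.05, 2 differed, both downward (4.01% of all genes). Of 7 common gamma-chain cytokine and receptor genes, 0 passed in limma, 2 differences were above 0 and 0 had an unadjusted p under 0.05 (median -0.10). Outside these lists, 2 receptor genes chosen after their values were seen rose. Il20rb and Il22ra1 encode receptor chains through which interleukins of the IL-10 family act on keratinocytes by way of JAK1 and STAT3. Il20rb read 7.79 and 8.37 with vehicle, 9.01 and 9.85 with ruxolitinib, 9.37, 8.96 and 9.57 with tofacitinib, and 10.18 to 11.08 at day 0 (1.29 ± 0.27, limma adjusted p = 0.0483). Il22ra1 read 5.87 and 5.72 with vehicle, 6.83 to 7.46 with the inhibitors and 7.66 to 8.74 at day 0 (1.27 ± 0.27, adjusted p = 0.0483). In both, treated skin lay between vehicle and day 0 without touching either.

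**Figure D4:**
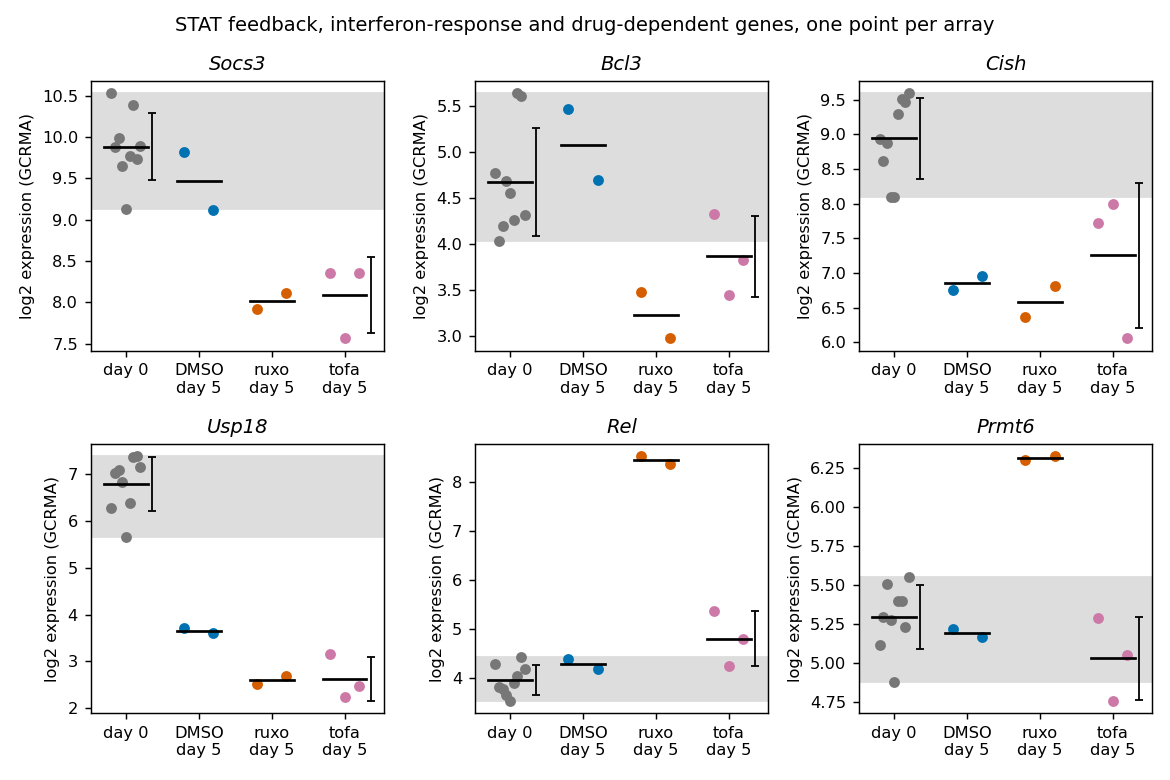
Log2 expression (vertical axis, GCRMA) of Socs3, Bcl3, Cish, Usp18, Rel and Prmt6 in each array by group (horizontal axis); lines, bars and bands as in the other strip plots. Socs3 in the 5 inhibitor arrays (7.56 to 8.36) lies below both vehicle arrays and the day-0 band, Cish overlaps, and Rel in the 2 ruxolitinib arrays (8.53 and 8.37) lies above all the others.

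Placed against the range of the 9 day-0 arrays, 67 of the 90 genes (74.4%) moved from the vehicle level towards day 0. Of these, 27 were restored (vehicle mean outside the range, inhibitor mean inside it) and 40 were partly restored (both outside on the same side, inhibitors nearer). Over all genes tested, called or not, 50.8% fell in these classes, 17.0% as restored and 33.8% as partly restored. Among all genes, however, 28.1% had both the vehicle and the inhibitor mean inside the day-0 range, against 0 of the 90. The shares of all genes in the other classes are lower for that reason. The gap between 74.4% and 50.8% is therefore not read as an excess of movement towards day 0. By the test, vehicle differed from day 0 in 73 of the 90 genes, against 51.1% of all genes, and in 48 of the 90 the inhibitors did as well. Over all genes, the inhibitors differed from day 0 in 57.1%, with or without a difference in vehicle. The partly restored genes had a median of 59.8% of the vehicle change undone, with a range of 28.3% to 77.2%. A further 16 genes (17.8%, against 7.29% of all genes) departed from a day-0 range in which vehicle skin had stayed, among them Pmel, Tyrp1, Tyr, Dct, Shh, Klk13 and Rptn. In 4 genes (4.44%, against 0.248%) the inhibitor mean crossed from below the day-0 range to above it, and 3 (3.33%, against 13.5%) moved further from day 0 than vehicle. Among the 80 rises 59 moved towards day 0, and among the 10 falls 8 did. These shares carry no test, since the vehicle and inhibitor arrays enter both the call and the placement.

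The 4 genes that crossed the day-0 range were Hoxc13, Arg2, Cbr3 and Slc5a1. Arg2, the mitochondrial arginase, read 6.76 and 6.23 with vehicle, 7.86 to 9.21 with the inhibitors and 7.41 to 8.46 at day 0 (2.06 ± 0.33, limma adjusted p = 0.00903). Cbr3, a carbonyl reductase, read 7.82 and 8.34 with vehicle, 9.08 to 9.55 with the inhibitors and 8.39 to 8.89 at day 0, so all 5 treated arrays stood above it (1.20 ± 0.19). Slc5a1, the sodium-coupled glucose transporter, exceeded the day-0 maximum of 6.14 by little, with treated arrays from 5.97 to 6.31 (1.35 ± 0.23). Syt4 and Fras1 rose further from day 0. Both were among the 8 called genes that passed the filter on low values through the inhibitor arrays alone, so they could only rise. Syt4, a synaptotagmin of vesicle traffic, read 2.30 and 2.84 with vehicle and 4.00 to 5.11 with the inhibitors (1.92 ± 0.23, limma adjusted p = 0.00278), a size that is uncertain because the lower vehicle value lay among the control probe sets. Fras1, a basement membrane protein, read 2.98 and 3.18 with vehicle and 3.82 to 4.83 with the inhibitors (1.34 ± 0.21). Gsta2, a glutathione transferase, was partly restored. It read 6.39 and 6.04 with vehicle, 7.44 to 8.04 with the inhibitors and 8.18 to 8.78 at day 0 (1.47 ± 0.20, limma adjusted p = 0.00605).

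**Figure D5:**
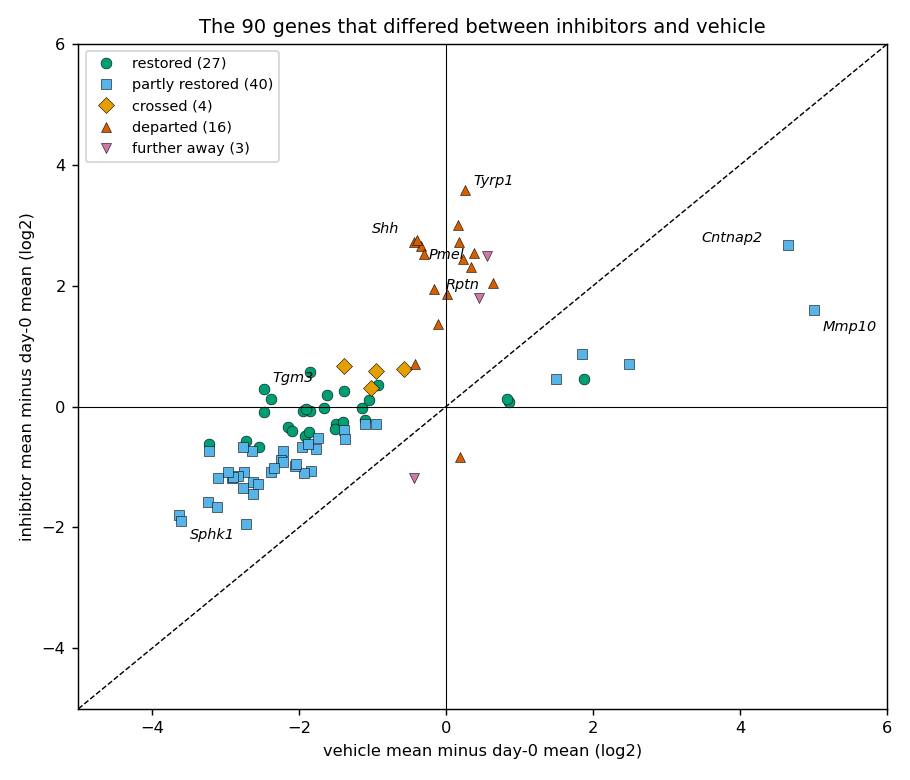
The 90 genes that differed between inhibitors and vehicle, each placed by its vehicle mean minus day-0 mean (horizontal axis, log2) and its inhibitor mean minus day-0 mean (vertical axis, log2), coloured by class. The dashed line marks equal vehicle and inhibitor means and the horizontal line at 0 the day-0 mean; 27 restored and 40 partly restored genes lie between the 2 lines or close to the latter, and Pmel, Tyrp1 and Shh lie high above a vehicle change near 0.

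The drugs were then compared, with the reservation that their doses are not stated in the labels used here. On their own, ruxolitinib differed from vehicle in 63 genes (0.521%; 49 higher, 0.405%, and 14 lower, 0.116%) and tofacitinib in 20 (0.165%, all higher), comparisons that share the 2 vehicle arrays. Pmel rose by 3.13 ± 0.41 with ruxolitinib and by 3.09 ± 0.37 with tofacitinib (limma adjusted p = 0.00456 and 0.00503), and the difference between the drugs was -0.04 (interval -0.84 to 0.76). Shh rose by 3.82 ± 0.79 with ruxolitinib (limma adjusted p = 0.0453); with tofacitinib it differed by 2.64 ± 0.72 (adjusted p = 0.171). The interval of that difference, -2.71 to 0.35, includes 0 and also a much weaker response to tofacitinib. Mmp10 fell by 4.03 on the log2 scale with ruxolitinib (limma adjusted p = 0.018) and differed by -2.99 with tofacitinib (adjusted p = 0.0623), with an interval of the difference from -0.21 to 2.31. Over the 90 genes the median absolute difference between the drugs was 0.27. Because the 90 were called on the mean of both drugs, this value does not measure how alike the drugs are.

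Tofacitinib against ruxolitinib gave 3 genes of 12087 (0.0248%), all lower with tofacitinib, and 1 of these, Rel, was among the 90. Rel, an NF-kB subunit, read 4.39 and 4.19 with vehicle, 8.53 and 8.37 with ruxolitinib, and 5.37, 4.24 and 4.80 with tofacitinib (tofacitinib minus ruxolitinib -3.69, interval -4.33 to -3.05, limma adjusted p = 4.11e-05). It was the only one of the 90 whose inhibitor arrays overlapped vehicle, and its call in the pooled comparison rests on the 2 ruxolitinib arrays. Cdk13, a transcriptional kinase, read 6.77 and 7.07 with vehicle, 10.20 and 9.33 with ruxolitinib, and 7.71, 6.50 and 7.61 with tofacitinib (-2.55, limma adjusted p = 0.0212). Its 2 probe sets gave 0.09 and 1.35 for both inhibitors against vehicle. Prmt6, an arginine methyltransferase, read 5.22 and 5.17 with vehicle, 6.30 and 6.32 with ruxolitinib, and 5.29, 4.76 and 5.05 with tofacitinib (-1.28, limma adjusted p = 0.0275). When each mouse was a fixed block, 0 genes differed between the drugs in limma, and 1492 had an unadjusted p under 0.05; the 3 became 9 without mouse 7 and 1 without mouse 4 or mouse 9.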

How the data were processed

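Whole-skin RNA was amplified (NuGEN Ovation), labelled with biotin and hybridised to Affymetrix mouse arrays, per the labels' protocols. The deposited values are log2 expression levels of probe sets, for which the authors used GCRMA per the submitters' processing notes; its version and whether it was run once over all arrays are not stated in the labels or notes used here. The number of arrays limits the precision.

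Groups came from the labels. Of 45101 probe sets, 34958 had 1 gene symbol in the platform table, 932 had several and 9211 were not listed; only the first were tested. Symbols matched the mouse RefSeq table by gene ID for 34754 of these. Probe sets above log2 4 in at least 2 arrays were kept, and each gene was represented by its probe set of highest mean (12087 of 18194 genes).

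The fit (limma 3.58.1, R 4.3.3) had 4 group means on 16 arrays, mouse as a random block (correlation 0.0982), empirical Bayes moderation, Benjamini-Hochberg adjustment over all genes of a comparison, called at an adjusted p under 0.05. The pooled contrast was the mean of the 5 inhibitor arrays minus that of the 2 vehicle arrays. Errors are standard errors and intervals 95%; folds are 2 to the power of the difference. The same mouse gave both biopsies per the labels; deviations of its 2 arrays from their group means correlated above 0.1 in 2 of 7 pairs (range -0.183 to 0.178).

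Named genes were the 12 largest rises and 12 largest falls without overlap of arrays (predicted symbols left out), the 5 smallest p of each placement class, up to 4 smallest p of each list described, Janus kinases, SOCS genes and hair cycle signals. Mlana, Trpm1, Mitf, Sox10, Msx2, Lrrc15, Atp6v1b1, Casp14, the Lce1 genes, Kprp, Slc46a2, Kifc1, Il20rb, Il22ra1, Prmt6 and Cdk13 were chosen after their values were seen. Members and the 40 gene lists were chosen with earlier results of these data known. The scripts were tested on simulated data. Alternatives covered the filter, probe set, block, samples, drug weights, normalization, muscle covariate, variance prior, mouse 7's label and each day-5 array.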

Additional observations from a re-analysis of the deposited data

Results flagged for a closer look

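In the test of single outlying arrays (Dixon's test at its 95% critical value), 5 of 158 groups of values stood out, and chance would flag about 1 in 20. Tyrp1 was low in the day-0 array of mouse 3 (3.11), below the other 8. Krt25 was high in the day-0 array of mouse 9 (2.82), and Jak2 in the day-0 array of mouse 1 (10.85). Among the 5 inhibitor arrays, mouse 9 was lowest for Krt1 (12.17) and for Lipk (7.82).

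The drugs differed in 3 genes by the test of the difference itself, and all 3 were higher in the ruxolitinib arrays: Rel (tofacitinib minus ruxolitinib -3.69), Cdk13 (-2.55) and Prmt6 (-1.28). In each, both ruxolitinib arrays lay above every other day-5 array.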

How the results depend on the processing

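The count of 90 genes for both inhibitors against vehicle stayed within 1.5 times under other filters, probe set rules, drug weights, scalings, no block and a trended prior (64 to 120). It became 0 with the mouse as a fixed block, 0 with the 7 day-5 arrays alone (1436 at an unadjusted p under 0.05, all 90 among them), 150 with the muscle mean as a covariate and 176 with mouse 7 analysed as ruxolitinib. Leaving out 1 array gave 0 to 374 (0 without the vehicle array of mouse 2, 374 without mouse 9). Ruxolitinib against vehicle gave 63 genes, 0 with the fixed block and 1 to 16 without 1 array. Tofacitinib against vehicle gave 20, 11 without the filter, 0 with the fixed block and 0 to 126 without 1 array. Tofacitinib against ruxolitinib gave 3, 0 with the fixed block and 1 to 9 without 1 array. Vehicle against day 0 gave 6178 (51.1% of genes), 3701 with the fixed block and 3470 to 4001 without 1 vehicle array. Both inhibitors against day 0 gave 6898 (57.1%), within 1.5 times in all settings run. Placement towards day 0 held for 67 or 68 of the 90 genes without either vehicle array, with 2 SD around the day-0 mean as the range, and by calls against day 0. Signs turned in 4 genes, none of which passed. Mitf became -0.10 with the mean of its probe sets and ran from -0.011 to 0.19 without 1 array (below 0 without the vehicle array of mouse 2). Axin2 became 0.054 with the fixed block and 2.27e-05 with equal drug weights, and ran from -0.084 to 0.14 without 1 array (above 0 without mouse 3, 4 or 8). Jak2 became 0.076 with the fixed block and ran from -0.034 to 0.020 (above 0 without mouse 4 or 7). Cish became -0.32 with the fixed block and -0.058 with the muscle covariate, and ran from -0.14 to 0.36 (below 0 without mouse 7 or 8). The cause of these shifts was not tested. The pairing through the mouse changed the count of calls but turned the sign of none of the 90 genes, which were called from the same arrays. With 2 vehicle arrays, each sets much of the vehicle mean, and genes near the control probe sets have uncertain sizes.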

Other observations

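The gene groups below gave no gene past adjustment, and their values are set out here. Over all genes, 8.92% had an unadjusted p under 0.05 upward and 4.01% downward. All 21 sebaceous and sterol synthesis genes differed upward with the inhibitors (median 0.38), 0 passed in limma and 7 had an unadjusted p under 0.05. Their mean was 10.41 and 10.31 with vehicle, 10.48 to 11.02 with the inhibitors and 10.41 to 11.11 at day 0. Of 21 bulge stem cell genes, 0 passed, 7 had an unadjusted p under 0.05 upward and 1 downward (median 0.33). Their mean was 8.03 and 8.23 with vehicle, 8.33 to 8.70 with the inhibitors and 8.61 to 9.22 at day 0. Of 23 dermal papilla genes 0 passed and 3 had an unadjusted p under 0.05, all upward (median 0.10).

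Cells that enter or rebuild tissue after a biopsy were followed by their markers. The mean of 7 mast cell markers was 4.71 and 5.17 with vehicle, 5.09 to 6.32 with the inhibitors and 2.68 to 4.58 at day 0. Of the 7, 0 passed adjustment in limma and 1 had an unadjusted p under 0.05, upward. That marker passed the filter on low values through the inhibitor arrays alone and could only rise. Among the other 6 markers, 0 had such a p upward. The mean of 13 macrophage markers was 6.80 and 6.73 with vehicle, 6.45 to 6.99 with the inhibitors and 5.14 to 6.34 at day 0. Only 3 of 12 neutrophil markers passed the filter on low values. All 3 had an unadjusted p under 0.05 upward (median 1.13), and 0 passed adjustment in limma. The mean of the 3 was 5.83 and 5.45 with vehicle, 6.29 to 7.32 with the inhibitors and 6.05 to 7.34 at day 0. Vehicle thus lay under the day-0 range and the inhibitor arrays inside it. These markers do not mark neutrophils alone, since this list shares a member with that of stress keratins and activated keratinocyte genes. The mean of 30 fibroblast and matrix genes was 8.37 and 8.62 with vehicle, 8.25 to 9.04 with the inhibitors and 6.10 to 7.91 at day 0.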
